A study of Homo sapiens with 6 samples.

Results

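The genes described here are 33 genes of ferroptosis, glutathione metabolism and the NRF2 response. They were given as a list of names from the known biology of these pathways, with earlier results of these data known. They were found among 19746 genes by matching Ensembl identifiers to GENCODE symbols, and all 33 had a mean high enough to be tested, as did 12756 genes in all. RNA-Seq was made from SW480, an established human colorectal cancer cell line, to find genes downstream of PCYT2, the enzyme of the CDP-ethanolamine pathway that makes the activated precursor of phosphatidylethanolamine. Every group carried a short hairpin RNA delivered by lentivirus and selected with puromycin: the nontargeting hairpin shNT in the controls (2 libraries), and in the other groups a single PCYT2 hairpin, shPcyt2-1 (2 libraries) or shPcyt2-2 (2 libraries). All cells were thus transduced, no untransduced cells were sequenced, the cells were not described as single clones, and the knockdown was partial. The labels do not say that the 2 libraries of a group came from separate cultures, so p-values measure only the spread between these libraries.

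Ferroptosis is an iron-dependent form of cell death driven by peroxidation of polyunsaturated phospholipids, among which phosphatidylethanolamines are major substrates. It is held back by cystine import through the SLC7A11 and SLC3A2 exchanger, by glutathione made from that cystine, and by GPX4, which uses glutathione to reduce lipid peroxides. NRF2, the product of NFE2L2, is a transcription factor held low by KEAP1 that drives many genes for glutathione, thioredoxin, NADPH and iron storage, and cellular iron itself is set by proteins that bind iron-responsive elements in messenger RNAs.

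Levels are given as FPKM, fragment counts divided by transcript length and by the total of the library. The number of reads behind them is unknown, and the summed FPKM per library ran from 396467 to 402612. In each sentence on levels, replicate 1 comes before replicate 2. Fold changes are differences of group means on the log2(FPKM + 1) scale, which understates the change of genes near 1 FPKM. They are given with the standard error (SE) and the adjusted p from limma, a linear model fitted across all tested genes with all 6 libraries, and a gene was called where this adjusted p was under 0.05. In bulk RNA, fewer cells expressing a gene and less RNA per cell cannot be told apart.

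PCYT2 itself (chr17:81900965-81911464, GRCh38) was at 11.6 and 13.8 FPKM in shNT, 7.11 and 7.36 with shPcyt2-1, and 6.71 and 6.18 with shPcyt2-2. It was lower with shPcyt2-1 by −0.73 (SE 0.10, adjusted p = 0.00205, limma) and with shPcyt2-2 by −0.88 (SE 0.10, adjusted p = 0.00261). The mean FPKM fell by 43.0% and 49.2%, and the difference between the hairpins was −0.15 (95% interval −0.37 to 0.08, adjusted p = 0.309), which passed as −0.21 (adjusted p = 0.0299) with a trend on GC content and transcript length removed. Of 10 colorectal epithelial markers fixed for this check, 9 were at a mean of at least 0.5 FPKM, led by the keratin KRT8. Their summed level was 8200 and 8759 FPKM in shNT, 8419 and 8513 with shPcyt2-1, and 6245 and 6542 with shPcyt2-2. The keratins KRT8, KRT18 and KRT19 were lower with shPcyt2-2 by −0.41, −0.45 and −0.44 on the log2 scale, while the cadherin CDH17 was higher with it by 0.50, and EPCAM and VIL1 (0.11 and 0.14) were not called. With shPcyt2-1 the homeobox gene CDX2 and the galectin LGALS4 were lower, by −0.65 and −0.58, and the keratins were not called. The part of these differences in the results below was not tested. Summed markers of leukocytes stayed between 17.1 and 23.7 FPKM in the 6 libraries, mostly CD68, those of fibroblasts between 1.10 and 1.75, and those of endothelium under 0.77. The 4 hepatocyte markers summed to between 6.90 and 9.22 FPKM, mostly ALB, and of the 2 tested, ALB was higher with shPcyt2-1 (0.50, adjusted p = 0.0448) and SERPINA1 lower (−0.69, adjusted p = 0.00368), with neither called with shPcyt2-2.

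A short hairpin in the untranslated regions of 4 of the 33 genes is printed here because it is the element through which iron sets their messengers. Iron regulatory proteins, one of them the IREB2 product IRP2, bind the iron-responsive element when iron is low. At the 5′ end binding blocks translation, and at the 3′ end of TFRC it protects the messenger from decay. The pattern searched was an unpaired C, a stem of 5 base pairs with G:T pairs allowed, and a loop of 6 bases, CAGTG followed by any base but G, on the coding strand of the longest coding transcript in GENCODE. It was found in 92 of 20371 coding genes (0.452%). Bases of the loop are in capitals, and every sequence is written 5′ to 3′ on the strand of the gene, GRCh38.
FTH1 5′ (chr11:61967574-61967601, minus strand): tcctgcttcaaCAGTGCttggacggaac
FTL 5′ (chr19:48965336-48965363, plus strand): tcttgcttcaaCAGTGTttggacggaac
SLC40A1 5′ (chr2:189580661-189580688, minus strand): aacttcagctaCAGTGTtagctaagttt
TFRC 3′ (chr3:196050979-196051006, minus strand): attatcggaagCAGTGCcttccataatt
TFRC 3′ (chr3:196050575-196050602, minus strand): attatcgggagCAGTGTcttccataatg
TFRC 3′ (chr3:196050510-196050537, minus strand): tgtatcggagaCAGTGAtctccatatgt
TFRC 3′ (chr3:196050463-196050490, minus strand): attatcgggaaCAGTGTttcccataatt
A match is a description of the letters and not a measured binding site.

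Against shNT, 14 of the 33 genes were called with shPcyt2-1, 11 higher and 3 lower, and 6 with shPcyt2-2, 5 higher and 1 lower. Leaving out 1 library moved both counts, as given under how the results depend on the processing. Among all 12756 tested genes, 26.7% were called with shPcyt2-1 (16.5% higher, 10.1% lower) and 12.4% with shPcyt2-2 (7.69% higher, 4.74% lower), against 42.4% and 18.2% of the 33. Their median change was 0.09 with shPcyt2-1 and 0.01 with shPcyt2-2, where all tested genes had medians of 0.07 and 0.04. The balance of higher and lower calls depended on scaling: with median-ratio scaling of the libraries, the share of all calls that were higher went from 62.0% to 44.7% with shPcyt2-1 and from 61.9% to 46.5% with shPcyt2-2. With no filter on low values, 7 of the 33 passed with shPcyt2-1 and 0 with shPcyt2-2 by limma (11 at an unadjusted p under 0.05). The shares of all genes called fell as well, to 9.27% and 0.628%. Median-ratio scaling ended the calls of GCLC, GSS, PRDX6, TXN, FTL and NCOA4 with shPcyt2-1 and of MGST1 and PRDX1 with shPcyt2-2. The comparisons share the shNT libraries, so the values of each gene are set side by side. Compared directly, shPcyt2-2 and shPcyt2-1 differed in 11 of the 33 genes, 3 higher and 8 lower with shPcyt2-2 (33.3%), where 27.1% of all tested genes differed (12.9% higher, 14.2% lower). In all, 18 genes passed in at least 1 of these 3 comparisons and 15 in none, the latter with changes from −0.27 to 0.38.

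**Figure D1:**
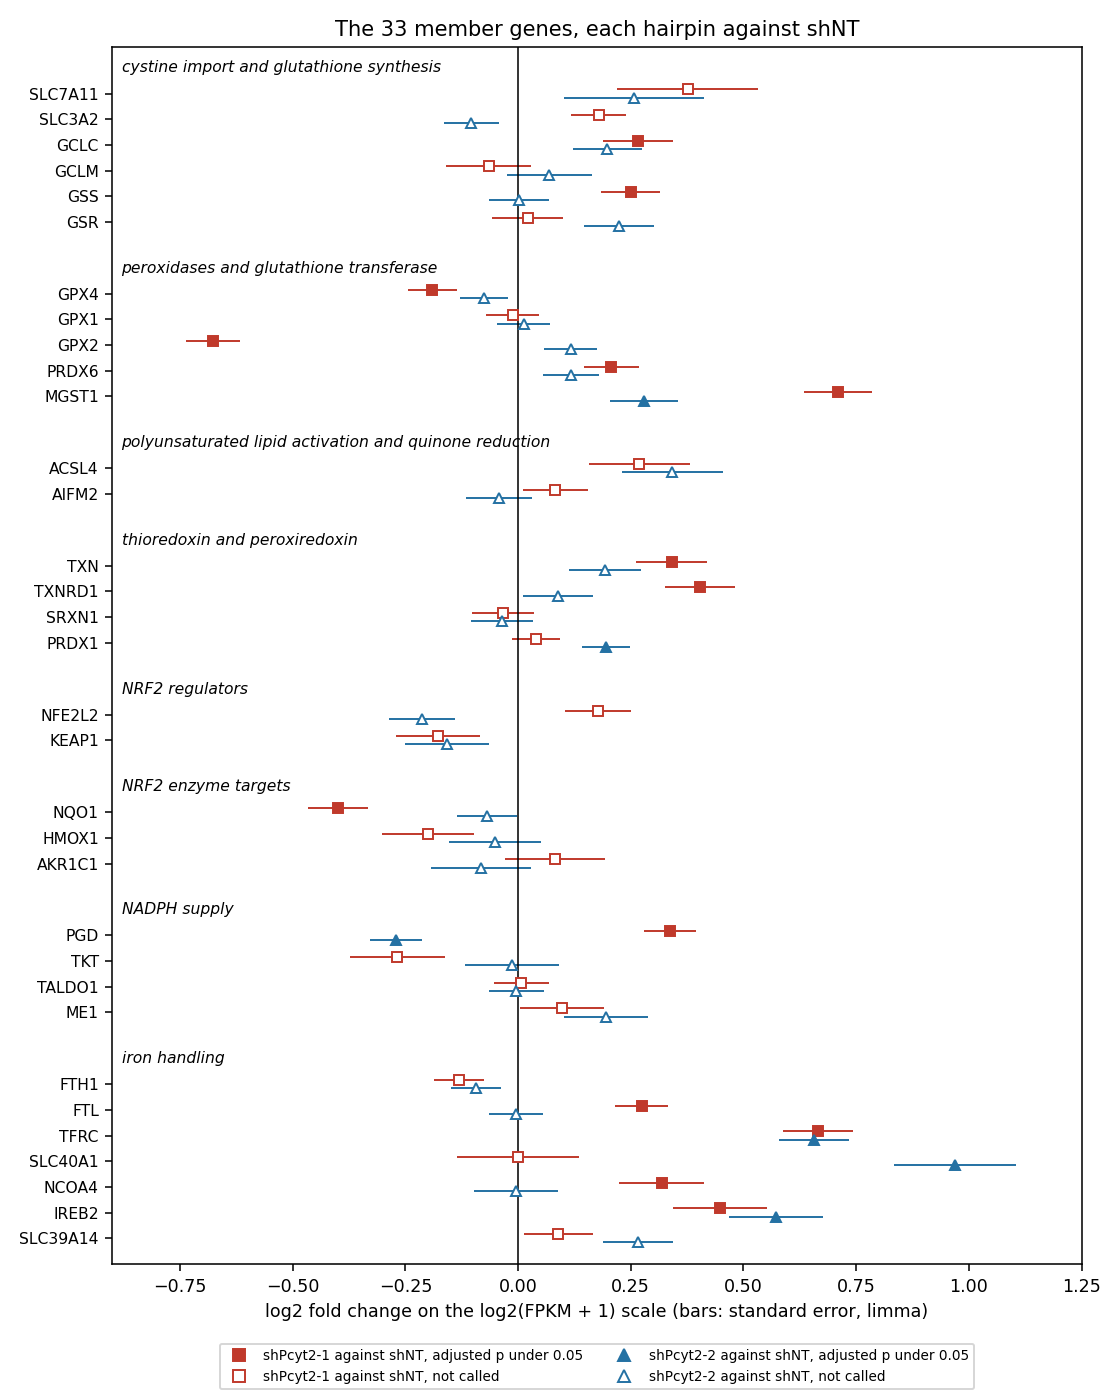
Log2 fold change of each of the 33 genes on the log2(FPKM + 1) scale, grouped by role, with shPcyt2-1 (red squares) and shPcyt2-2 (blue triangles) against shNT; bars are the limma standard error (2 libraries a group) and filled symbols passed an adjusted p of 0.05. TFRC, IREB2, MGST1 and PGD are filled for both hairpins, and PGD lies on opposite sides of 0, at 0.34 and −0.27.

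Of the 7 iron genes, 4 were higher with shPcyt2-1 and 3 with shPcyt2-2, and none was lower (57.1% and 42.9%, where 16.5% and 7.69% of all tested genes were higher). TFRC and IREB2, a receptor that brings iron in and a sensor of low iron, were higher with either hairpin, by about 60% and by 39% to 52% of the shNT mean. Beyond these, the hairpins parted: SLC40A1 was higher with shPcyt2-2 alone among the comparisons with shNT, and FTL and NCOA4 with shPcyt2-1 alone, and the hairpins differed in each of these 3 genes when compared directly. With median-ratio scaling the calls of FTL and NCOA4 with shPcyt2-1 were lost, which leaves TFRC and IREB2 with that hairpin. The call of SLC40A1 with shPcyt2-2 passed under that scaling, as did those of TFRC and IREB2.

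TFRC (chr3:196027183-196082189), the transferrin receptor, was at 57.2 and 54.5 FPKM in shNT, 91.3 and 87.0 with shPcyt2-1, and 95.5 and 82.1 with shPcyt2-2. All 4 knockdown libraries lay above both shNT libraries. The change was 0.67 with shPcyt2-1 (SE 0.08, adjusted p = 0.00119, limma) and 0.66 with shPcyt2-2 (SE 0.08, adjusted p = 0.00314). The hairpins differed by −0.01, with a 95% interval of −0.19 to 0.17. TFRC is the gene with the 4 hairpins printed above, all in its 3′ untranslated region.

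IREB2 (chr15:78437431-78501456) was at 14.2 and 11.7 FPKM in shNT, 18.6 and 17.3 with shPcyt2-1, and 20.8 and 18.5 with shPcyt2-2. Again every knockdown library was above both controls, which were further apart, relative to their level, than those of TFRC. The change was 0.45 with shPcyt2-1 (SE 0.10, adjusted p = 0.0153, limma) and 0.57 with shPcyt2-2 (SE 0.10, adjusted p = 0.0129). Neither call held without shNT replicate 2, the lower of the controls (adjusted p = 0.0738 and 0.0583, limma), nor without replicate 1 of the hairpin concerned (0.0856 and 0.11). With a trend on GC content and transcript length removed, the changes were smaller, 0.26 and 0.38, and passed (adjusted p = 0.0205 and 0.0124).

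SLC40A1 (chr2:189560579-189583758) encodes ferroportin, the exporter of iron. It was at 1.90 and 2.09 FPKM in shNT and 2.16 and 1.84 with shPcyt2-1, which overlapped, and at 5.66 and 4.17 with shPcyt2-2, above the other 4 libraries. The change was 0.00 with shPcyt2-1 (95% interval −0.31 to 0.31, adjusted p = 0.998, limma) and 0.97 with shPcyt2-2 (SE 0.14, adjusted p = 0.00544), and the hairpins differed by 0.97 (SE 0.14, adjusted p = 0.00134). In FPKM, the mean with shPcyt2-2 was 146% above shNT, at a level that ranked this gene 10054th of 19746 in the controls.

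The ferritin chains were among the most abundant messengers of these cells, FTL at rank 19 and FTH1 at rank 21 in shNT. FTL (chr19:48965301-48966878), the light chain, was at 1835 and 1835 FPKM in shNT, 2182 and 2256 with shPcyt2-1, and 1737 and 1926 with shPcyt2-2. Both shPcyt2-1 libraries were above all others, while those of shPcyt2-2 lay on either side of the controls. FTL was higher with shPcyt2-1 by 0.27 (SE 0.06, adjusted p = 0.0113, limma), its value with shPcyt2-2 was 0.00 (adjusted p = 0.969), and the hairpins differed by −0.28 (SE 0.06, adjusted p = 0.00897). The heavy chain FTH1 (chr11:61959718-61967660), at 1694 and 1716 FPKM in shNT, had changes of −0.13 and −0.09 that did not pass (adjusted p = 0.112 and 0.284, limma). Reads of both chains may be shared with their many processed pseudogenes, so their values are uncertain.

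NCOA4 (chr10:46005088-46030714), the receptor that carries ferritin to the lysosome for breakdown, was at 28.6 and 25.1 FPKM in shNT, 34.6 and 32.8 with shPcyt2-1, and 28.9 and 24.7 with shPcyt2-2. It was higher with shPcyt2-1 by 0.32 (SE 0.09, adjusted p = 0.0359, limma), and lower with shPcyt2-2 than with shPcyt2-1 by −0.32 (SE 0.09, adjusted p = 0.0322). NCOA4 has a near-identical duplicated copy, which makes its value uncertain. SLC39A14, an importer of iron that is not bound to transferrin, was at 30.1 and 31.1 FPKM in shNT and 39.2 and 34.8 with shPcyt2-2, a change of 0.27 that missed the threshold (adjusted p = 0.0526, limma). Without shPcyt2-1 replicate 1, the adjusted p of FTL and NCOA4 against shNT was 0.0542 and 0.168, and without replicate 2 it was 0.0774 and 0.0698. NCOA4 also did not pass without shNT replicate 2 (0.167), and the direct difference was lost for both genes without shPcyt2-1 replicate 2 (0.0699 and 0.0636), for FTL without shPcyt2-2 replicate 1 (0.0622), and for NCOA4 without shPcyt2-1 replicate 1 (0.147) or shPcyt2-2 replicate 2 (−0.21, adjusted p = 0.191). With median-ratio scaling the changes against shNT were 0.19 for FTL (adjusted p = 0.178) and 0.24 for NCOA4 (0.0665), and the difference of FTL between the hairpins was −0.25 (0.0886), none of which passed, and with the trend on GC content and length removed that of NCOA4 was 0.17 (0.0737).

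**Figure D2:**
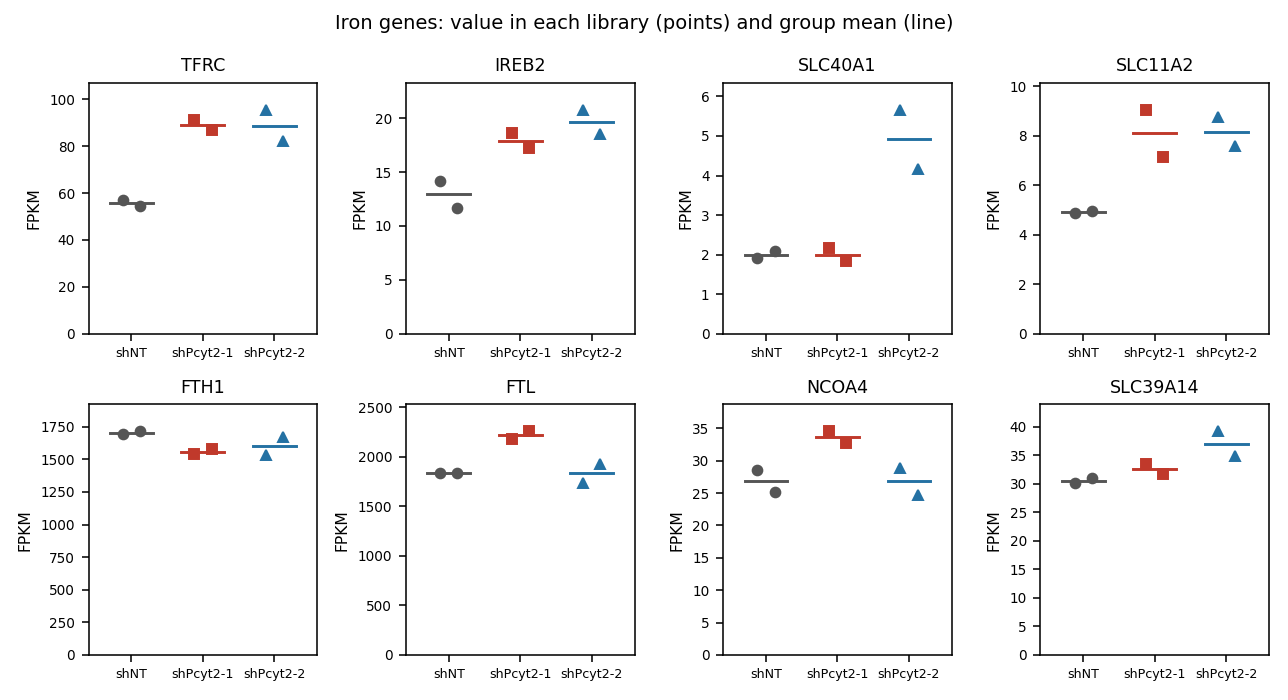
FPKM of the 7 iron genes and of SLC11A2 in each library (points) with the group mean (line), for shNT (grey), shPcyt2-1 (red) and shPcyt2-2 (blue), 2 libraries each. TFRC, IREB2 and SLC11A2 sit above shNT in all 4 knockdown libraries, and SLC40A1 stands apart in those of shPcyt2-2, at 5.66 and 4.17.

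Among the 6 genes of cystine import and glutathione synthesis, 2 were higher with shPcyt2-1, none passed with shPcyt2-2, and 2 were lower with shPcyt2-2 than with shPcyt2-1. In either direction, these counts are near the shares called among all tested genes, 26.7%, 12.4% and 27.1%. Of all tested genes, 16.5% were higher with shPcyt2-1, and 14.2% were lower with shPcyt2-2 than with shPcyt2-1. SLC7A11 (chr4:138164097-138242349), the cystine carrier, was low, at 4.08 and 3.14 FPKM in shNT, 5.44 and 4.50 with shPcyt2-1, and 5.28 and 3.78 with shPcyt2-2. The means were above that of shNT with either hairpin, but the libraries of shPcyt2-2 lay further apart than the means of shPcyt2-2 and shNT. Replicate 1 was the higher library in each group. The change was 0.38 with shPcyt2-1 (SE 0.16, adjusted p = 0.103, limma) and 0.26 with shPcyt2-2 (SE 0.16, adjusted p = 0.292). Leaving out 1 library moved these values between 0.23 and 0.52 and between 0.06 and 0.45, the lowest without shNT replicate 2 and without shPcyt2-2 replicate 1 and the highest without shNT replicate 1 and without shPcyt2-2 replicate 2, and with the trend on GC content and length removed they were 0.16 and 0.02.

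SLC3A2 (chr11:62856102-62888875), its partner chain that also serves other amino acid carriers, was at 193 and 212 FPKM in shNT, 232 and 226 with shPcyt2-1, and 190 and 186 with shPcyt2-2. The hairpins thus lay on either side of the controls. Neither passed against shNT, with changes of 0.18 (adjusted p = 0.0581, limma) and −0.10 (adjusted p = 0.277), and they differed from each other by −0.28 (SE 0.06, adjusted p = 0.00963). This difference was lost without shPcyt2-1 replicate 1 (adjusted p = 0.0774) or shPcyt2-2 replicate 2 (0.0637). The change with shPcyt2-1 passed without shNT replicate 2 (0.25, adjusted p = 0.0257) and with the trend on GC content and length removed (0.22, adjusted p = 0.0123), while it was 0.11 without shNT replicate 1 (adjusted p = 0.162) and 0.10 with median-ratio scaling (adjusted p = 0.336). With shPcyt2-2, leaving out 1 library gave values between −0.17 and −0.04, set by the shNT libraries, and none passed.

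GCLC (chr6:53497341-53616970), the catalytic subunit of the enzyme that limits glutathione synthesis, was at 12.2 and 11.5 FPKM in shNT, 14.7 and 14.3 with shPcyt2-1, and 14.0 and 13.5 with shPcyt2-2. All knockdown libraries were above the controls, and the change passed with shPcyt2-1 (0.27, SE 0.08, adjusted p = 0.0337, limma) but not with shPcyt2-2 (0.20, SE 0.08, adjusted p = 0.118). Its regulatory partner GCLM, at 5.71 and 5.32 FPKM in shNT, had changes of −0.07 and 0.07. GSS (chr20:34928433-34956027), which joins glycine to complete glutathione, was at 67.3 and 73.5 FPKM in shNT, 86.0 and 81.8 with shPcyt2-1, and 69.6 and 71.3 with shPcyt2-2. It was higher with shPcyt2-1 by 0.25 (SE 0.07, adjusted p = 0.0243, limma), stood at 0.00 with shPcyt2-2 (95% interval −0.15 to 0.15), and differed between the hairpins by −0.25 (SE 0.07, adjusted p = 0.0227). GSR, which reduces oxidized glutathione, was at 34.9 and 31.5 FPKM in shNT and had changes of 0.02 and 0.22, neither called.

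The calls of GCLC and GSS with shPcyt2-1 did not hold without shPcyt2-1 replicate 1 (adjusted p = 0.205 and 0.181, limma) or replicate 2 (0.132 and 0.0649), nor GCLC without shNT replicate 2 (0.124), nor GSS without shNT replicate 1 (0.068). With a trend on GC content and transcript length removed, GCLC fell short of the threshold at 0.13 (adjusted p = 0.119), and with median-ratio scaling both did (GCLC 0.19, adjusted p = 0.082, and GSS 0.17, adjusted p = 0.13). For GSS, the contrast of the hairpins was lost when any of the 4 knockdown libraries was left out (adjusted p from 0.0632 to 0.173) and with median-ratio scaling (−0.22, adjusted p = 0.0587).

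The peroxidases and the microsomal glutathione transferase MGST1 showed the widest spread of changes with shPcyt2-1, 2 of 5 higher and 2 lower (16.5% and 10.1% among all tested genes). With shPcyt2-2 only MGST1 passed (20%, where 12.4% of all tested genes were called). GPX2, the glutathione peroxidase typical of gut epithelium, was 37.5% lower in FPKM with shPcyt2-1, and MGST1, a membrane enzyme that reduces lipid hydroperoxides, was 65.5% higher. GPX4, the enzyme central to ferroptosis, moved less, 12.4% lower with shPcyt2-1.

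GPX4 (chr19:1103926-1106791) was at 277 and 276 FPKM in shNT, 242 and 243 with shPcyt2-1, and 255 and 270 with shPcyt2-2. All 4 knockdown libraries were below both controls, those of shPcyt2-2 by less. The change was −0.19 with shPcyt2-1 (SE 0.05, adjusted p = 0.031, limma) and −0.08 with shPcyt2-2 (95% interval −0.20 to 0.05, adjusted p = 0.368), and the hairpins differed by 0.11 (adjusted p = 0.144). The call with shPcyt2-1 was lost with the trend on GC content and length removed, where the change was −0.06 (adjusted p = 0.471), and without shNT replicate 2 (0.0569), shPcyt2-1 replicate 1 (0.191) or shPcyt2-1 replicate 2 (0.145).

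GPX2 (chr14:64939152-64942905) was at 270 and 262 FPKM in shNT, 159 and 173 with shPcyt2-1, and 291 and 286 with shPcyt2-2. The shPcyt2-1 libraries were far below the other 4. The change was −0.68 with shPcyt2-1 (SE 0.06, adjusted p = 0.000371, limma) and 0.12 with shPcyt2-2 (SE 0.06, adjusted p = 0.21), and the hairpins differed by 0.79 (SE 0.06, adjusted p = 7.79e-05). GPX1, the widely expressed cytosolic enzyme of the same family, was at 304 and 322 FPKM in shNT and changed by −0.01 and 0.01.

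MGST1 (chr12:16347142-16609259) was at 34.0 and 31.5 FPKM in shNT, 56.5 and 51.8 with shPcyt2-1, and 38.6 and 41.2 with shPcyt2-2. The 3 groups did not overlap, with shPcyt2-2 between the others. The change was 0.71 with shPcyt2-1 (SE 0.07, adjusted p = 0.000832, limma) and 0.28 with shPcyt2-2 (SE 0.07, adjusted p = 0.0432), and the hairpins differed by −0.43 (SE 0.07, adjusted p = 0.00368). The smaller change passed under 6 of 15 alternatives, being lost without shNT replicate 2 (adjusted p = 0.167), without either shPcyt2-2 library (0.126 and 0.149) or either shPcyt2-1 library (0.0549 and 0.0545), and with the trend on GC content and length removed (0.16, adjusted p = 0.179).

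PRDX6 (chr1:173477266-173488807), a peroxiredoxin that also reduces phospholipid peroxides, was at 97.2 and 89.7 FPKM in shNT, 108 and 108 with shPcyt2-1, and 103 and 99.9 with shPcyt2-2. All knockdown libraries lay above the controls, and the change passed with shPcyt2-1 (0.21, SE 0.06, adjusted p = 0.0367, limma) and not with shPcyt2-2 (0.12, adjusted p = 0.226). The call held under 6 of 15 alternatives, being lost without any 1 library other than shNT replicate 1 (adjusted p from 0.0536 to 0.189), and the change was 0.13 with median-ratio scaling (adjusted p = 0.195) and 0.08 with the trend on GC content and length removed (adjusted p = 0.215).

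ACSL4 and AIFM2, which act on the lipid side of ferroptosis, did not pass in any of these comparisons. ACSL4 (chrX:109624244-109733403) activates polyunsaturated fatty acids for entry into phospholipids and was at 15.9 and 12.4 FPKM in shNT, 17.3 and 16.9 with shPcyt2-1, and 19.1 and 17.01 with shPcyt2-2. Each knockdown library exceeded both controls, with changes of 0.27 (SE 0.11, adjusted p = 0.105, limma) and 0.34 (SE 0.11, adjusted p = 0.0765). Without shNT replicate 1, the higher control, both changes passed (0.44, adjusted p = 0.0181, and 0.51, adjusted p = 0.0163), and without shNT replicate 2 they were 0.10 and 0.18 (adjusted p = 0.5 and 0.344). With the trend on GC content and length removed they were 0.07 and 0.13. AIFM2 (chr10:70098223-70132934), the coenzyme Q reductase also called FSP1, was at 21.4 and 23.0 FPKM in shNT, 23.1 and 24.0 with shPcyt2-1, and 21.4 and 21.6 with shPcyt2-2, with changes of 0.08 (95% interval −0.08 to 0.25) and −0.04 (−0.21 to 0.12).

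Of the 4 thioredoxin and peroxiredoxin genes, 2 were higher with shPcyt2-1 and 1 with shPcyt2-2, and none was lower against shNT. These are 50% and 25%, where 16.5% and 7.69% of all tested genes were higher, and 26.7% and 12.4% were called in either direction. TXNRD1 (chr12:104215779-104350305), the selenoenzyme that keeps thioredoxin reduced, was at 49.0 and 43.6 FPKM in shNT, 58.7 and 64.3 with shPcyt2-1, and 48.2 and 50.2 with shPcyt2-2. The shPcyt2-1 libraries were above all others, and those of shPcyt2-2 overlapped the controls. The change was 0.40 with shPcyt2-1 (SE 0.08, adjusted p = 0.00736, limma) and 0.09 with shPcyt2-2 (adjusted p = 0.476), and the hairpins differed by −0.32 (SE 0.08, adjusted p = 0.017).

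TXN (chr9:110243811-110256640), thioredoxin itself, was at 320 and 267 FPKM in shNT, 370 and 371 with shPcyt2-1, and 330 and 339 with shPcyt2-2. The controls were the furthest apart of the 3 groups, and all knockdown libraries lay above them. The change passed with shPcyt2-1 (0.34, SE 0.08, adjusted p = 0.0152, limma) and not with shPcyt2-2 (0.19, SE 0.08, adjusted p = 0.135).

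PRDX1 (chr1:45511036-45523047), a peroxiredoxin that thioredoxin regenerates, was at 330 and 313 FPKM in shNT, 325 and 336 with shPcyt2-1, and 369 and 367 with shPcyt2-2. Both shPcyt2-2 libraries stood above all others, while those of shPcyt2-1 lay below and above the higher control, with a change of 0.20 (SE 0.05, adjusted p = 0.0461, limma) against 0.04 with shPcyt2-1 (adjusted p = 0.613). The hairpins themselves were 0.16 apart, short of the threshold (adjusted p = 0.0593), and passed as 0.21 (adjusted p = 0.016) with the trend on GC content and length removed. SRXN1, which repairs overoxidized peroxiredoxins, was at 34.1 and 32.1 FPKM in shNT and changed by −0.03 and −0.04. Reads of TXN, PRDX1 and GPX1 may also be shared with processed pseudogenes.

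In this group, TXN did not pass with shPcyt2-1 without shPcyt2-1 replicate 1 (adjusted p = 0.0574, limma), with median-ratio scaling (0.26, adjusted p = 0.0798) or with the trend on GC content and length removed (0.20, adjusted p = 0.0594). Its values moved with the control library left out: without shNT replicate 2 they were 0.21 with shPcyt2-1 and 0.06 with shPcyt2-2, and without shNT replicate 1 the change with shPcyt2-2 passed (0.32, adjusted p = 0.00977). TXN also differed between the hairpins, and PRDX1 likewise, without either shNT library (adjusted p from 0.0261 to 0.0307). The call of PRDX1 with shPcyt2-2 was lost without any 1 library other than shNT replicate 1 (adjusted p from 0.0918 to 0.185), and the difference in TXNRD1 without shPcyt2-1 replicate 2 (0.123), shPcyt2-2 replicate 1 (0.0942) or shPcyt2-2 replicate 2 (0.0609).

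NFE2L2 (chr2:177227595-177392697), the gene of NRF2, was at 24.6 and 22.7 FPKM in shNT, 26.9 and 26.8 with shPcyt2-1, and 19.8 and 20.7 with shPcyt2-2. The controls lay between the hairpins with no overlap. Neither change against shNT passed, at 0.18 (SE 0.07, adjusted p = 0.102, limma) and −0.21 (SE 0.07, adjusted p = 0.0851). With the trend on GC content and length removed they were 0.05 (adjusted p = 0.624) and −0.30, which passed (adjusted p = 0.0254). NFE2L2 was lower with shPcyt2-2 than with shPcyt2-1 by −0.39 (SE 0.07, adjusted p = 0.00511). KEAP1 (chr19:10486120-10503741), the adaptor that targets NRF2 for degradation, was at 41.9 and 46.7 FPKM in shNT, 40.4 and 37.6 with shPcyt2-1, and 43.1 and 36.3 with shPcyt2-2, with changes of −0.18 (adjusted p = 0.181) and −0.16 (adjusted p = 0.28). Leaving out 1 library moved these values of KEAP1 between −0.25 and −0.10, the latter without shNT replicate 2, and between −0.28 and −0.04, without shPcyt2-2 replicate 1 and replicate 2, and none passed.

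Of the 3 enzymes best known as NRF2 targets, only NQO1 passed, with shPcyt2-1 and between the hairpins (33.3% each), and none with shPcyt2-2. Of all tested genes, 26.7%, 27.1% and 12.4% were called in these comparisons. NQO1 (chr16:69706996-69726951), a quinone reductase, was at 33.5 and 32.0 FPKM in shNT, 24.2 and 25.0 with shPcyt2-1, and 31.3 and 31.0 with shPcyt2-2. The shPcyt2-1 libraries were below all others. The change was −0.40 with shPcyt2-1 (SE 0.07, adjusted p = 0.00426, limma) and −0.07 with shPcyt2-2 (95% interval −0.22 to 0.08, adjusted p = 0.511), and the hairpins differed by 0.33 (SE 0.07, adjusted p = 0.00739; without shPcyt2-1 replicate 1, 0.31, adjusted p = 0.0701). HMOX1, the haem oxygenase, was low, at 4.37 and 4.65 FPKM in shNT and 3.87 and 3.72 with shPcyt2-1 (−0.20, adjusted p = 0.173). AKR1C1, an aldo-keto reductase whose reads may be shared with its close paralogs AKR1C2 and AKR1C3, was at 0.698 to 1.03 FPKM in the 6 libraries.

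With shPcyt2-1, NQO1 and GPX2, both known NRF2 targets, were thus lower while TXNRD1 and PGD, also known targets, were higher. Letters of the antioxidant response element, which NRF2 binds together with small MAF proteins, were searched as TGACNNNGC on both strands of RefSeq promoters (GRCh38.p14, 250 bases before to 50 after the start). They stood in at least 1 promoter of 4384 of 27305 genes (16.1%) and of 10 of the 25 members with a promoter in that table. The matches are shown for the members among these 10 that passed a test with their first match, with 10 bases on either side, 5′ to 3′ on the strand of the gene, and the motif or its reverse complement in capitals.
GPX2, at −122 from the start (chr14:64942849-64942877, minus strand): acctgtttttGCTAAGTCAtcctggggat
TXNRD1, at −99 from the start (chr12:104215670-104215698, plus strand): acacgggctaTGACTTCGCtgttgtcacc
SLC3A2, at −37 from the start (chr11:62881652-62881680, plus strand): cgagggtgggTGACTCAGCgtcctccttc
PGD, at −201 from the start (chr1:10398853-10398881, plus strand): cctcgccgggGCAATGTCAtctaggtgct
MGST1, at 30 from the start (chr12:16347135-16347163, plus strand): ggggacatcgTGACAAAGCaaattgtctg
NCOA4, at 23 from the start (chr10:46019958-46019986, minus strand): ctctgaaagcTGACAGTGCtctaactgcg
The genes with these letters thus included one that was lower with shPcyt2-1 (GPX2) and others that were higher (TXNRD1, PGD, MGST1 and NCOA4). AIFM2, GCLM, KEAP1 and ME1 also had the letters and were not called in any of these comparisons. NQO1 had no match in its promoter, and bases further away were not searched. FTH1, GSR, GSS, HMOX1, PRDX1, PRDX6, SLC39A14 and SLC7A11 had no promoter to search. No binding of NRF2 was measured.

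PGD (chr1:10398592-10420144), the dehydrogenase of the pentose phosphate pathway that makes NADPH from 6-phosphogluconate, was called in opposite directions with the hairpins. It was at 103 and 106 FPKM in shNT, 133 and 132 with shPcyt2-1, and 88.7 and 84.5 with shPcyt2-2, with no overlap between any groups. PGD was higher with shPcyt2-1 by 0.34 (SE 0.06, adjusted p = 0.00456, limma), lower with shPcyt2-2 by −0.27 (SE 0.06, adjusted p = 0.0203), and the hairpins differed by −0.61 (SE 0.06, adjusted p = 0.000248). The lower level with shPcyt2-2 did not pass without shNT replicate 2 (adjusted p = 0.0677), shPcyt2-2 replicate 1 (0.0918) or shPcyt2-2 replicate 2 (0.0857), with changes from −0.31 to −0.24. The other genes of NADPH supply passed in no comparison: the pentose phosphate enzymes TKT, at 204 and 208 FPKM in shNT and with changes of −0.27 and −0.01, and TALDO1, with 0.01 and 0.00, and the malic enzyme ME1, with 0.10 and 0.20.

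**Figure D3:**
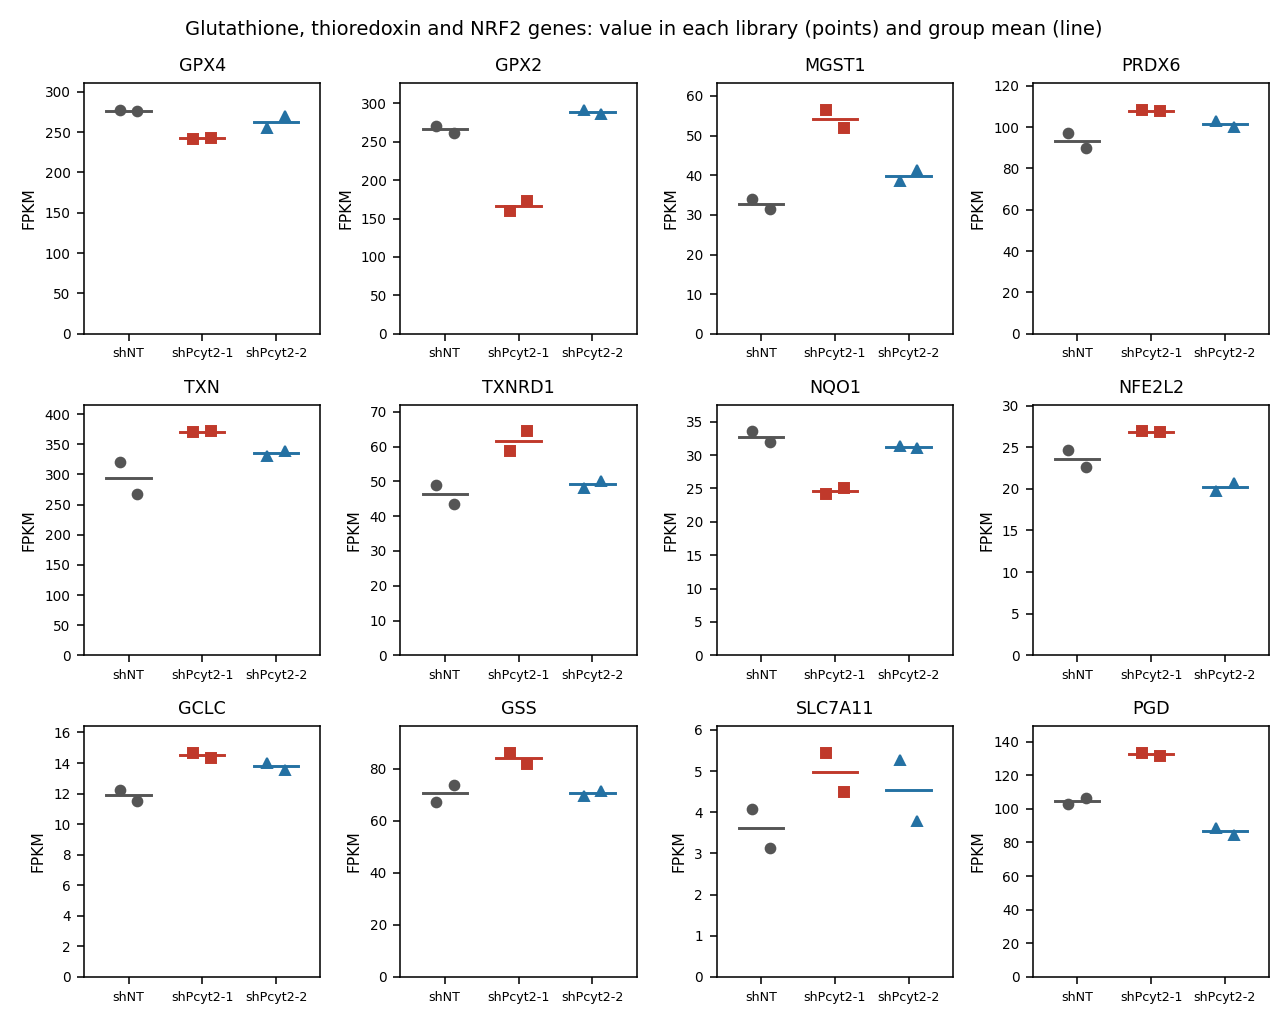
FPKM of 12 genes of glutathione, thioredoxin, NRF2 and NADPH metabolism in each library (points) with the group mean (line), for shNT (grey), shPcyt2-1 (red) and shPcyt2-2 (blue), 2 libraries each. In GPX2 and NQO1 the shPcyt2-1 libraries are the lowest, in TXNRD1 and MGST1 the highest, and in NFE2L2 and PGD shNT lies between the hairpins.

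Knockdown was also compared with control as 2 groups, both hairpins (4 libraries) against shNT (2 libraries). None of the 33 genes passed in it by limma, and of all tested genes 0.00784% did, which is a single lower gene, RGPD6, a member of a family of near-identical copies and named here for being the only call. At an unadjusted p under 0.05, 6 of the 33 genes were above shNT, and none below: TFRC (0.66, adjusted p = 0.115), IREB2 (0.51, adjusted p = 0.148), MGST1 (0.49, adjusted p = 0.209), ACSL4 (0.31), TXN (0.27) and GCLC (0.23). That is 18.2% of the 33, where 16.7% of all tested genes (2128, of which 1494 were higher) had such an unadjusted p, so the shares were close. PCYT2 itself did not pass in this fit (−0.80, SE 0.11, adjusted p = 0.115), in which any difference between the hairpins counts as spread.

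Other genes of these pathways were counted in 6 lists of 147 genes in all, named from known biology with earlier results of these data known. Their calls were not followed gene by gene under the alternatives of processing. Among 21 tested genes of iron handling other than the 33, 5 were higher and 2 lower with shPcyt2-1 (33.3% called), and 2 higher with shPcyt2-2 (9.52%), where 26.7% and 12.4% of all tested genes were called. SLC11A2, the importer DMT1 that passes on the iron TFRC brings in, was at 4.86 and 4.95 FPKM in shNT, 9.04 and 7.14 with shPcyt2-1, and 8.74 and 7.57 with shPcyt2-2. Like TFRC it was above the controls in all 4 knockdown libraries, with changes of 0.61 (SE 0.12, adjusted p = 0.00726, limma) and 0.63 (SE 0.12, adjusted p = 0.0144). TFR2, a second transferrin receptor known for iron sensing in liver, was lower with shPcyt2-1 (−0.40, adjusted p = 0.0251). HFE, a partner of the transferrin receptors, was at 0.419 and 0.324 FPKM in shNT, 0.471 and 0.539 with shPcyt2-1, and 0.905 and 0.747 with shPcyt2-2. It was called higher with shPcyt2-2 (0.41, adjusted p = 0.043). Its mean of 0.568 reached the 0.5 needed for testing only through the shPcyt2-2 libraries, so this call is not independent of the filter.

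Among 24 tested partners and targets of NRF2 outside the 33, 5 were higher and 9 lower with shPcyt2-1, 58.3% called with a median of −0.14. With shPcyt2-2, 1 was higher and 2 lower (12.5%). Of all tested genes, 26.7% were called with shPcyt2-1 (16.5% higher, 10.1% lower, median 0.07) and 12.4% with shPcyt2-2. ALDH3A1, an aldehyde dehydrogenase, was at 2.68 and 2.25 FPKM in shNT and between 1.01 and 1.22 in the 4 knockdown libraries. The change was −0.71 with shPcyt2-1 (adjusted p = 0.00368, limma) and −0.75 with shPcyt2-2 (adjusted p = 0.00718). The carbonyl reductase CBR3 was lower as well, by −0.79 (adjusted p = 0.00369) and −0.66 (adjusted p = 0.0151), while IDH1, the cytosolic NADPH-making isocitrate dehydrogenase, was higher, by 0.49 (adjusted p = 0.00372) and 0.54 (adjusted p = 0.00637).

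Of 18 tested thioredoxin, peroxiredoxin and superoxide genes, 6 were higher with shPcyt2-1 (33.3%) and 4 with shPcyt2-2 (22.2%), and none was lower. The shares over all tested genes were 16.5% higher and 10.1% lower with shPcyt2-1, and 7.69% and 4.74% with shPcyt2-2. PRDX3, the peroxiredoxin of mitochondria, was higher with either hairpin, by 0.35 (adjusted p = 0.0123, limma) and 0.60 (adjusted p = 0.00417). SOD2, the mitochondrial superoxide dismutase, was at 10.5 and 11.3 FPKM in shNT, 20.7 and 18.4 with shPcyt2-1, and 11.6 and 10.2 with shPcyt2-2. It was higher with shPcyt2-1 by 0.78 (adjusted p = 0.00128), and the hairpins differed by −0.79 (adjusted p = 0.000678).

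Of 26 tested genes of lipid peroxidation and membrane lipid supply, 6 were higher and 2 lower with shPcyt2-1 (30.8%), and 4 were higher with shPcyt2-2 (15.4%), shares near those of all tested genes. LPCAT3, which puts polyunsaturated fatty acids into phospholipids and was named after its values were seen, was higher with either hairpin, by 0.40 (adjusted p = 0.0114, limma) and 0.32 (adjusted p = 0.0454), and the elongase ELOVL5 with shPcyt2-1, by 0.64 (adjusted p = 0.00109). SAT1, a polyamine acetyltransferase, was at 263 and 222 FPKM in shNT, 185 and 211 with shPcyt2-1, and 335 and 371 with shPcyt2-2. Its change was −0.29 with shPcyt2-1 (adjusted p = 0.0495) and 0.54 with shPcyt2-2 (adjusted p = 0.0108), called in opposite directions. Unlike the calls of PGD, these were not followed under the alternatives, and the first was close to the threshold.

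Of 32 tested genes of glutathione use and turnover, 7 were higher and 6 lower with shPcyt2-1, 40.6% called, and 2 were higher and 2 lower with shPcyt2-2 (12.5%). In all tested genes these shares were 26.7% and 12.4%. ABCC3, an exporter of glutathione and other conjugates, was lower with shPcyt2-1 by −0.87 (adjusted p = 0.000979, limma). GLRX5, a mitochondrial glutaredoxin of iron-sulfur cluster assembly, was at 106 and 117 FPKM in shNT, 121 and 112 with shPcyt2-1, and 71.2 and 71.3 with shPcyt2-2. It was lower with shPcyt2-2 against shNT by −0.64 (adjusted p = 0.0024) and against shPcyt2-1 by −0.70 (adjusted p = 0.000294). Of 12 selenoprotein synthesis genes, 2 were higher and 1 lower with each hairpin (25.0%, against 26.7% and 12.4% of all tested genes). SELENOT, a selenoprotein of the endoplasmic reticulum, was higher with both, by 0.51 (adjusted p = 0.007) and 0.54 (adjusted p = 0.0123), and LRP8, a receptor for selenoprotein P, was lower with shPcyt2-1 by −0.60 (adjusted p = 0.0035).

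**Figure D4:**
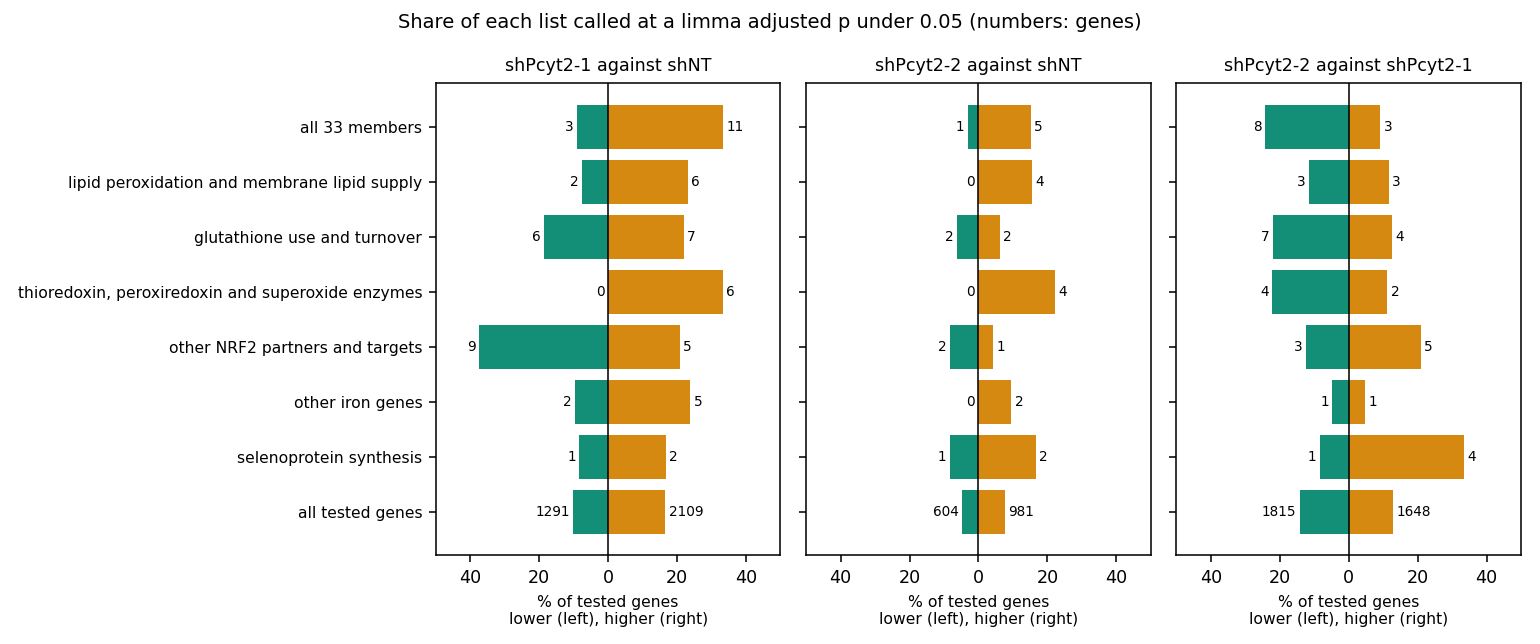
Percent of tested genes called higher (orange, right) or lower (green, left) at a limma adjusted p under 0.05 in the 33 genes, the 6 lists of other pathway genes and all 12756 tested genes, for each comparison, with the number of genes beside each bar. With shPcyt2-1, 11 of the 33 were higher and 3 lower; against shPcyt2-1, 3 were higher and 8 lower with shPcyt2-2.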

How the data were processed

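The authors deposited 1 table per library with a normalized value per gene, read as FPKM from the values themselves; that they are TPM summed over a subset of genes cannot be told from the values. The submitters' processing notes name the builds GRCh38, GRCm38 and mm10 with no role, and the aligner, counter and annotation are not given in the sources used here. More than 1 library kit is named in the labels, and which libraries were made with which is not given. Symbols and positions came from GENCODE release 29. Of 21539 identifiers, 115 repeated within a library were summed and 999 groups with identical values were merged, leaving 19746 genes, of which 12756 reached a mean of 0.5. These entered the test on log2(FPKM + 1) with limma 3.58.1 in R 4.3.3, with a trend of the variance on the mean, and p-values were adjusted by Benjamini-Hochberg over all of them. A fit with 3 groups gave the single hairpins and their difference, and a fit with 2 groups the pooled contrast. The paper's count-based test could not be run on FPKM.

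The 33 genes and the lists were chosen with earlier results of these data known. A member was described in full where it passed in at least 1 comparison of the 3-group fit, as were GPX4, ACSL4, SLC7A11, NFE2L2, KEAP1 and AIFM2. From each list of other genes, up to 3 called genes with the largest changes against shNT were eligible to be named, and LPCAT3 was named besides. The fits were tested on simulated data in which 200 genes changed alike in both hairpins. No simulated library was shifted as a whole, so that test does not cover scaling or a trend on GC content. Alternatives covered the pseudocount, the filter, scaling, the variance model, a replicate block, GC content and length, repeated rows and leaving out each library. Depth in reads is unknown, and each group had only 2 libraries. Which of these limits the precision more was not tested. Figures were drawn with matplotlib 3.10.9.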

Additional observations from a re-analysis of the deposited data

Results flagged for a closer look

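In 11 of the 33 genes the response differed between the hairpins by a direct test (limma adjusted p under 0.05, log2 of shPcyt2-2 over shPcyt2-1), which is 33.3% where 27.1% of all tested genes differed. The difference was positive for SLC40A1 (0.97), GPX2 (0.79) and NQO1 (0.33). It was negative for PGD (−0.61), MGST1 (−0.43), NFE2L2 (−0.39), NCOA4 (−0.32), TXNRD1 (−0.32), SLC3A2 (−0.28), FTL (−0.28) and GSS (−0.25). PCYT2 itself differed between the hairpins by −0.15 (adjusted p = 0.309), and by −0.21 (adjusted p = 0.0299) with the trend on GC content and length removed.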

How the results depend on the processing

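Each comparison was repeated under 15 alternatives, 6 of which leave out 1 library, where the lone library of its group is assumed to vary like the others. Gene by gene, only PCYT2 and the genes described in full were followed. Of 1035 values of PCYT2 and the genes described in full, 905 kept their direction and side of the threshold, 95 lost the call, 14 gained one and 21 changed sign. Calls that held under all 15 were GPX2, MGST1, TXNRD1, NQO1, PGD and TFRC with shPcyt2-1 (6 of 14), none of 6 with shPcyt2-2, and NFE2L2, GPX2, MGST1, PGD and SLC40A1 between the hairpins (5 of 11). With no filter on low values the calls were 7 with shPcyt2-1, 0 with shPcyt2-2 (11 at an unadjusted p under 0.05, TFRC at an adjusted p of 0.0548 and SLC40A1 at 0.068, limma) and 7 between the hairpins. Of all genes, 9.27%, 0.628% and 12.3% were called in that setting. Median-ratio scaling left 8 with shPcyt2-1, and no variance trend left 9 with shPcyt2-1 and 3 with shPcyt2-2. Leaving out 1 library gave 6 to 14, 2 to 9 and 7 to 13 calls in these comparisons and 0 to 0 in the pooled one. Over all genes, shPcyt2-2 had 124 calls with no filter and 125 without shPcyt2-2 replicate 1, against 1585. The cause of these changes was not tested.

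With the replicate number as a block the calls were 16 with shPcyt2-1, 8 with shPcyt2-2, 12 between the hairpins and 0 pooled. Of all tested genes, 30.4%, 15.9% and 30.3% were called in the first 3 of these comparisons. With the block, SLC7A11 passed with shPcyt2-1 (adjusted p = 0.0197, limma) and ACSL4 with shPcyt2-2 (0.0407). The deviations of same-numbered libraries had correlations of 0.0027, 0.0619 and 0.191, and the labels do not say what a shared number marks, so the reported values use no block.

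Sign changes all concerned values that had not been called. Median-ratio scaling gave −0.0406 for PRDX1 with shPcyt2-1, −0.052 for GSS with shPcyt2-2 and 0.0162 for TFRC between the hairpins. Removing the GC and length trend gave −0.0119 for PRDX1 with shPcyt2-1 and, with shPcyt2-2, 0.0427 for GPX4, −0.0193 for TXNRD1 and 0.0639 for FTL. Leaving out 1 library gave a range of −0.076 to 0.0752 for SLC40A1 with shPcyt2-1. With shPcyt2-2 it gave −0.0929 to 0.00812 for AIFM2, −0.0607 to 0.0644 for GSS, −0.0788 to 0.0695 for FTL and −0.115 to 0.105 for NCOA4. Between the hairpins it gave −0.00571 to 0.152 for ACSL4, −0.315 to 0.0767 for SLC7A11, −0.0994 to 0.14 for KEAP1 and −0.117 to 0.0985 for TFRC.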

Other observations

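MAFG encodes a small MAF protein that pairs with NRF2, and it is the next of these pathways' genes to PCYT2 on its chromosome (chr17:81918270-81927714). It was at 21.9 and 23.6 FPKM in shNT, 18.7 and 19.2 with shPcyt2-1, and 19.5 and 21.4 with shPcyt2-2. All 4 knockdown libraries were below both controls, with changes of −0.25 (SE 0.08, adjusted p = 0.0442, limma) and −0.15 (SE 0.08, adjusted p = 0.232). MAFG was picked for its position after its values were seen, and its call was not followed under the alternatives.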
